A study of Mus musculus with 16 samples.

Results

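The genes described here encode 4 families of pre-mRNA splicing factors in mouse 8-cell embryos. The families were chosen with earlier results of these data known, and the genes in them by name alone. They are the genes whose symbol begins with Snrp (proteins of the small nuclear ribonucleoproteins), Srsf followed by a number (serine and arginine rich splicing factors), Sf3a or Sf3b followed by a number (subunits of splicing factor 3) or Hnrnp (heterogeneous nuclear ribonucleoproteins). The rule found 56 of the 43437 genes in the table, of which 14 were Snrp, 12 Srsf, 9 Sf3 and 21 Hnrnp genes. Of these, 51 reached 1 FPKM (fragments scaled to transcript length and to library size) in at least 4 of the 16 libraries and were tested.

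The study injected zygotes with double-stranded RNA (dsRNA), which degrades the matching mRNA, and measured polyadenylated RNA of the embryos at the 8-cell stage. Tfap2c and Tead4, the genes targeted, encode transcription factors of the AP-2 and TEAD families that are known for their roles in forming the first epithelium of the embryo, the trophectoderm. The 4 groups received dsRNA against Tfap2c, against Tead4, against both (double knockdown), or against GFP, a jellyfish gene that the embryos lack, as the control. Each group had 4 libraries, and each library was made from 10 pooled embryos, or about 80 cells, with a Smart-seq2 procedure. All groups, the control included, were injected, cultured in KSOM medium and stripped of the zona pellucida. Libraries A1 and A2 came from embryos of C57BL/6J×CBA/J hybrid mothers, called cross A here, and B1 and B2 from C57BL/6J×DBA/2J hybrid mothers, called cross B. The labels of the fathers differ in a strain number from library to library, so the paternal strain is taken no further. Nothing in the labels says whether the libraries of a group came from separate injection days, so the p values measure the spread between these libraries, which may be partly technical. Values in every library are given in the order A1, A2, B1, B2.

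Introns are removed by the spliceosome, which assembles on each intron from small nuclear ribonucleoproteins. In these particles a ring of Sm proteins holds the RNA, U1 binds the start of the intron and U2, with the SF3a and SF3b complexes, binds the branch site near its end. SR proteins mostly promote the use of the exons they bind and hnRNP proteins often oppose them, so the balance of both kinds shapes alternative splicing. Loss of several of these genes, Srsf3 and Sf3b1 among them, is known to stop mouse embryos before implantation.

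The targeted mRNAs were lowered in part. Tfap2c was at 15.8 ± 1.65 FPKM in Tfap2c-knockdown and 16.2 ± 0.342 FPKM in double-knockdown libraries, against 35.7 ± 6.6 FPKM in GFP controls (SD, n = 4 each, exact two-sided permutation p = 0.0286 for both, the smallest p that 4 against 4 allows). Tead4 was at 7.66 ± 2.49 FPKM in Tead4-knockdown and 9.49 ± 3.94 FPKM in double-knockdown libraries, against 48.6 ± 7 FPKM in GFP controls (SD, n = 4 each, exact p = 0.0286 for both). Tead4 was also lower in Tfap2c-knockdown libraries, at 58.2% of the control mean (exact p = 0.0286), so those embryos carried less of both mRNAs. FPKM sums ran from 799260 to 874436 per library and relative depth, estimated from the spacing of low values, from 0.873 to 1.12. Absolute depth is unknown. The 6 markers of the 8-cell embryo, of which Dppa3 gave nearly the whole sum, summed to 5600 to 6880 FPKM in Tfap2c-knockdown, 7700 to 8570 FPKM in Tead4-knockdown and 5900 to 7160 FPKM in double-knockdown libraries, against 7970 to 8870 FPKM in GFP controls. The sums of both groups with Tfap2c dsRNA lay below all controls. Summed cumulus cell markers reached 0.165 FPKM and sperm markers 1.63 FPKM at most. The summed blood list ran from 29.3 to 63 FPKM in Tfap2c-knockdown, from 20.3 to 50.9 in Tead4-knockdown and from 40.7 to 77.7 in double-knockdown libraries, against 9.86 to 26.8 FPKM in GFP controls. That sum came almost wholly from Hba-a1 and Hba-a2, which passed 1 FPKM in all 16 libraries, while the defining markers Hbb-bs, Hbb-bt and Ptprc were at 0. The part of either sum in the differences between groups was not tested. In bulk RNA of whole embryos, fewer cells with a transcript and less of it per cell cannot be told apart.

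Regions upstream of 4 of the genes are printed, because AP-2 factors bind a known motif. These 4, 2 of them upward and 2 downward, were picked from the 8 genes that passed the test described further on in both groups with Tfap2c dsRNA. The search covered the 250 bases upstream of each RefSeq start (GRCm38.p6) for GCCNNNGGC, a palindromic AP-2 motif, and for GGAATG on either strand, a TEAD motif. The bases below run 5′ to 3′ on the + strand, and capitals mark matches to GCCNNNGGC. Where a RefSeq start lay inside the annotated gene, only 29 bases around each match are printed, and otherwise the bases before the gene's first annotated base.
Srsf1, chr11:88047216-88047244: tgcaactcccGCCGGCGGCaccgaagtgc
Srsf1, chr11:88047302-88047330: cgcctttcccGCCAAAGGCcgttaccacc
Snrpc, chr17:27839837-27840027: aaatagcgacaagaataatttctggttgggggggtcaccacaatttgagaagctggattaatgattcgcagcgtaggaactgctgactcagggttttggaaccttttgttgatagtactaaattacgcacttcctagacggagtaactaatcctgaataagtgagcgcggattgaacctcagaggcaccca
Srsf9, chr5:115326927-115327162: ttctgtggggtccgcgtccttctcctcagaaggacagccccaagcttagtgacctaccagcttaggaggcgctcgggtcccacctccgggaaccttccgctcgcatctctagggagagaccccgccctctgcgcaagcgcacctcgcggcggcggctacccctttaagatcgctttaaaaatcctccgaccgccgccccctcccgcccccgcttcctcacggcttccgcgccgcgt
Hnrnpr, chr4:136310692-136310941: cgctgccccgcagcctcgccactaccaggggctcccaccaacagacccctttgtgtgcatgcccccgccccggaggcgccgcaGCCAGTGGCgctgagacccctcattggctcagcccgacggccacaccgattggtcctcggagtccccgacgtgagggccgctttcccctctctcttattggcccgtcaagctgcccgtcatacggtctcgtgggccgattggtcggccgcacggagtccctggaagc
Matches to the AP-2 motif stood before Srsf1, which rose, and before Hnrnpr, which fell, and there was none before Snrpc, which rose, or before Srsf9, which fell. Of the genes passing in both groups that are not printed, Snrpb2, Sf3b6 and Snrpn had no match, and Hnrnpll had no upstream window. RefSeq gave 63 upstream windows for 46 of the gene symbols, and the AP-2 motif was in 33.3% of the windows, against 13.7% of all 32851 windows and 19.9% of the 9521 windows of genes tested here. Some genes have several windows. Counted by gene, the motif was before 32.6% of the 46, against 15.4% of all genes with windows and 23% of those tested. The median GC content of the 63 windows was 60.8%, against 52.4% in all windows and 59.2% in those of genes tested. The TEAD motif was in 6.35% of the 63 windows, against 12.6% of all and 10.4% of those of genes tested. By gene it was before 8.7% of the 46, against 14.4% of all genes with windows and 12.4% of those tested. A match is only a run of letters and says nothing of binding.

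In control embryos the 51 tested genes were abundant, with a median of 77.6 FPKM against 6.63 FPKM over all 11422 genes tested. Their control means ran from 0.689 FPKM (Hnrnpul1) to 808 FPKM (Snrpe), and 45.1% of them were at 100 FPKM or more, against 11.0% of all genes. FPKM is scaled to transcript length, so levels may be compared between genes, although short mRNAs such as those of Sm proteins are the least certain on this scale. The 7 genes of the Sm ring, whose proteins join in equal numbers, differed widely in mRNA level. Snrpe stood highest at 808 FPKM, followed by Snrpg at 564 FPKM and Snrpb at 516 FPKM, while Snrpd3 stood at 15.4 FPKM, 52.3-fold below Snrpe. Subunits of SF3b ranged from 224 FPKM (Sf3b1) to 19.9 FPKM (Sf3b3), an 11.3-fold spread. Among SR proteins, Srsf3 (355 FPKM) and Srsf5 (297 FPKM) led and Srsf4 was low at 3.45 FPKM. Among hnRNP genes, Hnrnpk, which binds C-rich RNA, led at 678 FPKM and Hnrnpa1, a repressor of exon inclusion, followed at 554 FPKM.

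**Figure D1:**
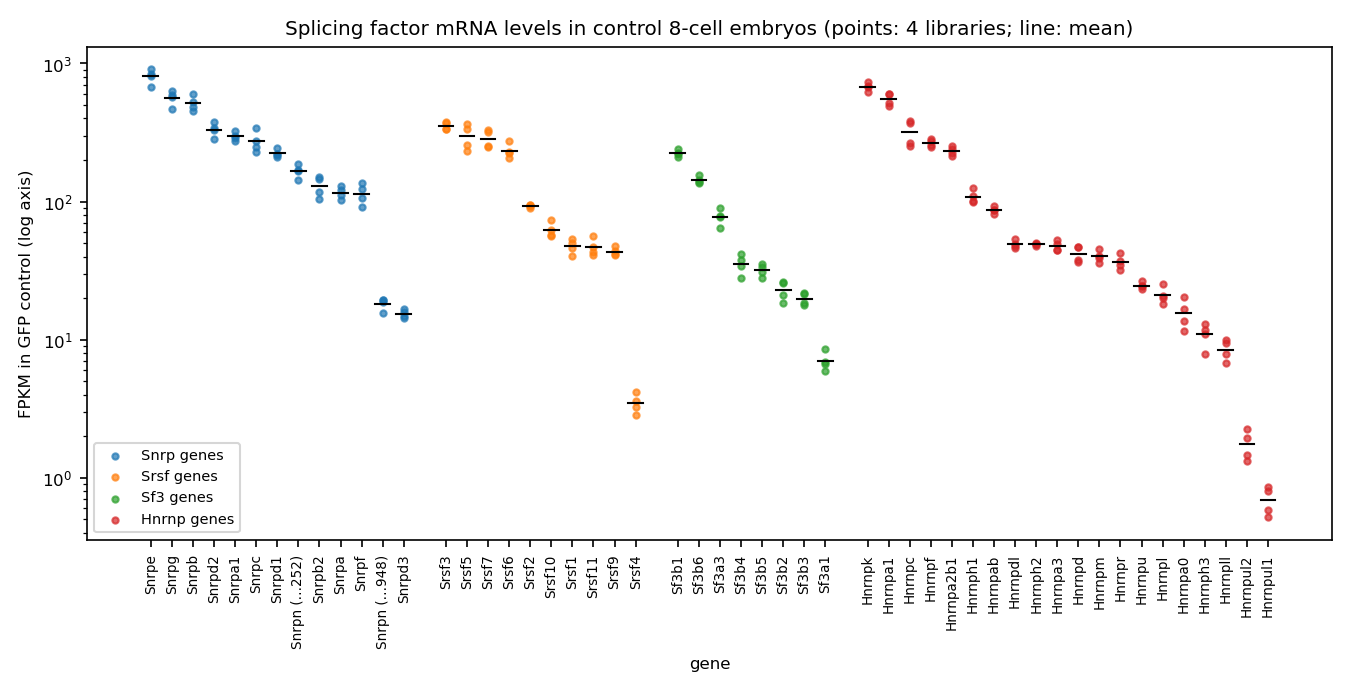
FPKM (log axis) of the 51 tested splicing factor genes in the 4 GFP-control libraries, ordered within each family by mean. Points are libraries and lines are means, and the Sm ring gene Snrpe (808 FPKM) and Hnrnpk (678 FPKM) stand at the top while Hnrnpul1 (0.689 FPKM) is lowest.

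In the other 5 genes too few libraries reached 1 FPKM. Snrp1c-ps2 and a second identifier named Srsf1 (ENSMUSG00000098301) were listed at 0 in every library, and Srsf12 and Hnrnpa1l2-ps were near 0. Sf3a2, a subunit of SF3a, lay just outside the filter, with 0.325 to 1.27 FPKM in the knockdown libraries and 0.236 to 0.353 FPKM in GFP controls. Hnrnpul1 lay just inside it, with 0.517 to 1.21 FPKM over the 16 libraries. There are 2 identifiers that carry the name Snrpn in the table, ENSMUSG00000000948 and ENSMUSG00000102252, and how reads were divided between them is uncertain.

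Each knockdown was compared with the GFP control to ask which splicing factor mRNAs depend on Tfap2c or Tead4. Changes are differences of log2(FPKM + 1) from a limma fit with group and cross, given with their SE, and the threshold was an adjusted p of 0.05 (Benjamini-Hochberg) over all 11422 genes. On this scale the change of a low gene is understated. With Tfap2c dsRNA, 9 of the 51 genes rose, 5 fell and 37 did not pass, so 27.5% passed, against 29.6% of all genes tested (16.3% rose and 13.2% fell). With Tead4 dsRNA 1 gene rose and 0 fell, which is 1.96% against 6.13% of all genes (3.35% rose and 2.78% fell). An unadjusted p under 0.05 was found for 8 of the 51, where 21.1% of all genes had one. In the double knockdown 6 rose and 5 fell, or 21.6% against 25.1% (13.9% rose and 11.3% fell). The values of a knockdown and of the control did not overlap in 9 of the 51 genes with Tfap2c dsRNA (22.1% of all genes), in 1 with Tead4 dsRNA (9.67%) and in 11 in the double knockdown (20.6%). Their median change was 0.07 with Tfap2c dsRNA, 0.06 with Tead4 dsRNA and 0.02 in the double knockdown, beside 0.06, 0.05 and 0.05 over all genes. These 3 comparisons share the 4 control libraries, so their values are given side by side and their likeness is not read as a result. Changes ran from -0.82 to 0.59 with Tfap2c dsRNA, and 17 genes passed in at least 1 of the 3 comparisons. The share of all genes that did so was not computed, so that count has no background.

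**Figure D2:**
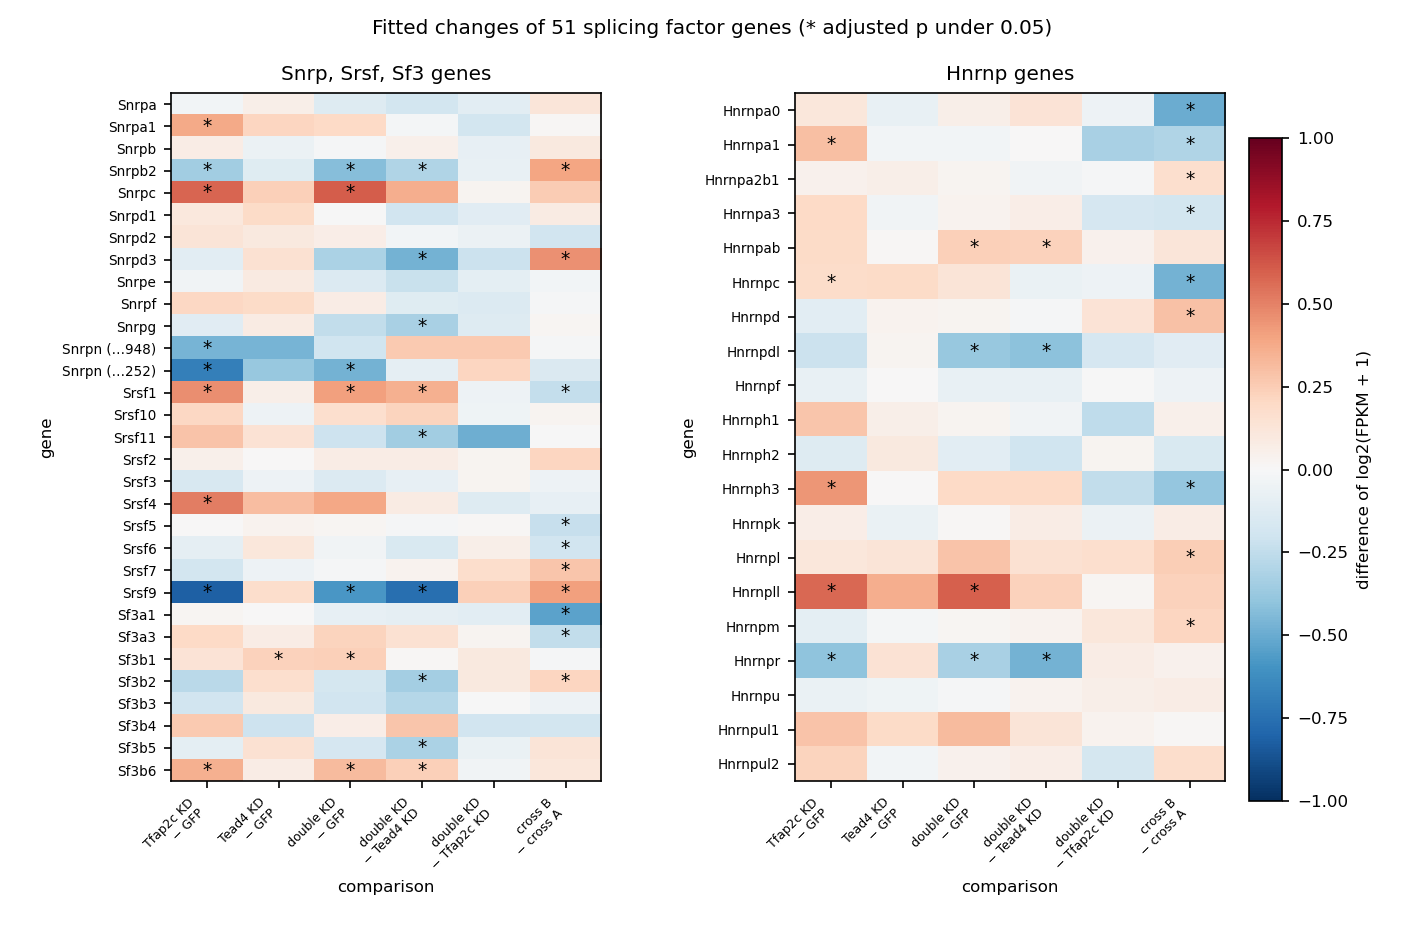
Differences of log2(FPKM + 1) for 51 splicing factor genes (rows) in 6 comparisons (columns), with red for higher and blue for lower in the group or cross named first and an asterisk for an adjusted p under 0.05 by limma. Srsf9 is the deepest blue with Tfap2c dsRNA (-0.82), the Tead4 column holds 1 asterisk (Sf3b1) and the column of double against Tfap2c knockdown holds 0.

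Among the U1 proteins, Snrpc rose and Snrpa did not pass. Snrpc encodes the U1-C protein, which helps U1 to recognise the start of the intron. It stood at 320, 377, 497 and 448 FPKM in Tfap2c-knockdown, 340, 305, 313 and 320 FPKM in Tead4-knockdown and 354, 372, 596 and 365 FPKM in double-knockdown libraries, against 273, 227, 341 and 250 FPKM in GFP controls. All double-knockdown values lay above all controls, while 1 Tfap2c-knockdown library fell below the highest control. The change was 0.59 ± 0.15 with Tfap2c dsRNA (limma, adjusted p = 0.00751) and 0.61 ± 0.15 in the double knockdown (adjusted p = 0.00664), and with Tead4 dsRNA it was 0.24 ± 0.15 (adjusted p = 0.382).

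The U2 proteins U2-A′ (Snrpa1) and U2-B″ (Snrpb2), which bind each other on U2 RNA, moved in opposite directions with Tfap2c dsRNA. Snrpa1 stood at 392, 354, 402 and 399 FPKM in Tfap2c-knockdown, 325, 352, 353 and 349 FPKM in Tead4-knockdown and 358, 358, 336 and 310 FPKM in double-knockdown libraries, against 288, 300, 275 and 327 FPKM in GFP controls. The Tfap2c-knockdown values did not overlap the controls, and the change was 0.38 ± 0.07 (limma, adjusted p = 0.00121), while Tead4 dsRNA (0.21 ± 0.07, adjusted p = 0.0926) and the double knockdown (0.20 ± 0.07, adjusted p = 0.0589) did not pass. Snrpb2 stood at 80.0, 88.9, 125 and 117 FPKM in Tfap2c-knockdown, 96.8, 100, 134 and 150 FPKM in Tead4-knockdown and 87.8, 96.8, 92.9 and 106 FPKM in double-knockdown libraries, against 105, 117, 151 and 147 FPKM in GFP controls. Within each cross every Tfap2c-knockdown and double-knockdown value was below every control, though across crosses the values overlapped. Snrpb2 fell by 0.35 with Tfap2c dsRNA (SE 0.09, limma, adjusted p = 0.0128) and by 0.42 in the double knockdown (SE 0.09, adjusted p = 0.00428), calls that end without the cross term (adjusted p = 0.178 and 0.112). The ratio of Snrpa1 to Snrpb2 was 3.88 ± 0.753 in Tfap2c-knockdown, 2.96 ± 0.573 in Tead4-knockdown and 3.58 ± 0.481 in double-knockdown libraries, against 2.34 ± 0.406 in GFP controls (SD, n = 4 each), a pair noticed after its values were seen and so not tested.

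In the Sm ring 0 of the 7 genes Snrpb, Snrpd1, Snrpd2, Snrpd3, Snrpe, Snrpf and Snrpg passed in any comparison with the control. Of all genes, 29.6% passed with Tfap2c dsRNA, 6.13% with Tead4 dsRNA and 25.1% in the double knockdown. With so few genes in the ring, its count is not read as a trait of it. Snrpe, the most abundant, stood at 784 ± 41.2 FPKM in Tfap2c-knockdown, 854 ± 61.2 FPKM in Tead4-knockdown and 733 ± 36.0 FPKM in double-knockdown libraries, against 808 ± 96.6 FPKM in GFP controls (SD, n = 4 each). Snrpn encodes SmN, a form of Sm B that is expressed from the paternal allele, and both of its identifiers fell with Tfap2c dsRNA. The more abundant, ENSMUSG00000102252, stood at 105, 132, 91.0 and 89.7 FPKM in Tfap2c-knockdown, 148, 113, 120 and 130 FPKM in Tead4-knockdown and 129, 106, 119 and 125 FPKM in double-knockdown libraries, against 188, 168, 144 and 166 FPKM in GFP controls. Every Tfap2c-knockdown and double-knockdown value lay below every control. It fell by 0.68 with Tfap2c dsRNA (SE 0.12, limma, adjusted p = 5.03e-04) and by 0.47 in the double knockdown (SE 0.12, adjusted p = 0.00746), and with Tead4 dsRNA its change was -0.38 ± 0.12 (adjusted p = 0.0613). The lesser identifier, ENSMUSG00000000948, had 13.1 ± 2.55 FPKM in Tfap2c-knockdown libraries against 18.3 ± 1.86 FPKM in GFP controls (SD, n = 4 each), and its call (adjusted p = 0.0448) was lost in 13 of 23 alternative settings.

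**Figure D3:**
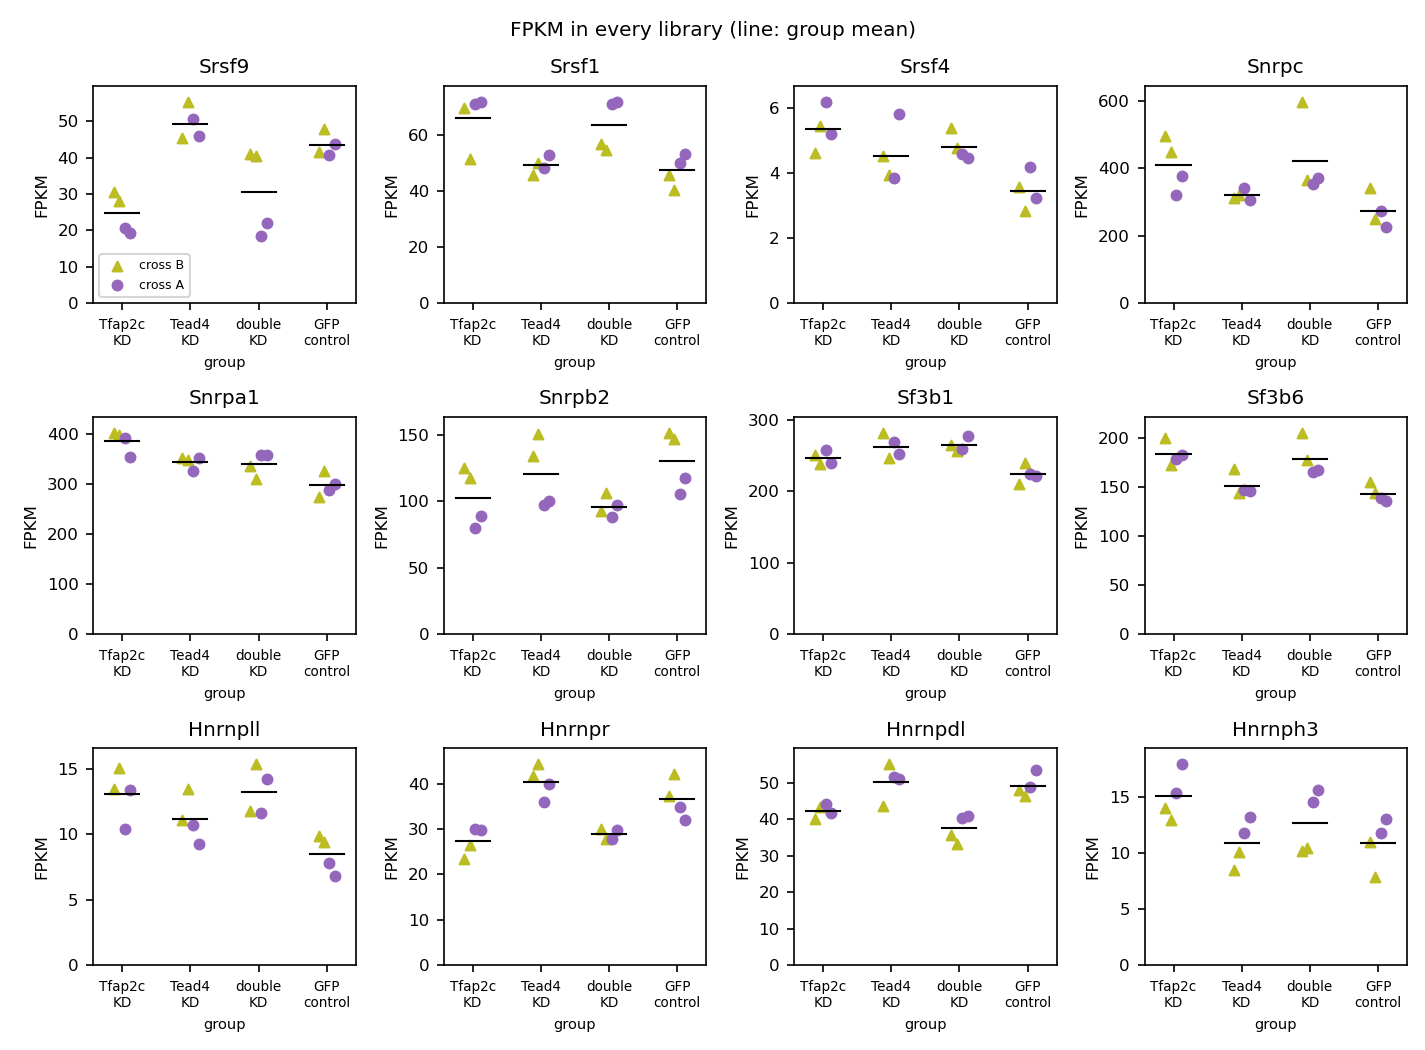
FPKM of 12 splicing factor genes in every library, with the 3 knockdown groups left of the GFP control, triangles for cross B, circles for cross A and lines for group means. Srsf9 and Hnrnpr lie low in both groups with Tfap2c dsRNA while Srsf1 and Sf3b6 lie high, and the double-knockdown values of Srsf9 separate by cross (40.9 and 40.3 FPKM in B, 18.5 and 22.1 FPKM in A).

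In the SF3 complexes, which hold U2 on the branch site, Sf3b6 and Sf3b1 rose and no gene fell in any comparison with the control. Only 8 Sf3 genes were tested. Of all genes, 13.2% fell with Tfap2c dsRNA, 2.78% with Tead4 dsRNA and 11.3% in the double knockdown. Sf3b6 encodes p14, the subunit next to the branch-site adenosine. It stood at 179, 183, 199 and 173 FPKM in Tfap2c-knockdown, 147, 145, 168 and 144 FPKM in Tead4-knockdown and 166, 167, 205 and 177 FPKM in double-knockdown libraries, against 139, 136, 155 and 144 FPKM in GFP controls. All libraries with Tfap2c dsRNA were above all controls, and the change was 0.35 ± 0.07 in the single (limma, adjusted p = 0.00218) and 0.32 ± 0.07 in the double knockdown (adjusted p = 0.00546). Sf3b1, the largest subunit and the scaffold of SF3b, was the only splicing factor gene of the 51 to pass with Tead4 dsRNA. It stood at 258, 240, 251 and 239 FPKM in Tfap2c-knockdown, 269, 252, 282 and 247 FPKM in Tead4-knockdown and 259, 277, 265 and 257 FPKM in double-knockdown libraries, against 224, 222, 211 and 240 FPKM in GFP controls. Tead4-knockdown and double-knockdown values did not overlap the controls. The change was 0.23 ± 0.06 with Tead4 dsRNA (adjusted p = 0.0480), a call lost in 19 of 23 alternative settings with adjusted p up to 0.188, and 0.24 ± 0.06 in the double knockdown (adjusted p = 0.0127, but 0.0531 with median-ratio size factors). With Tfap2c dsRNA alone it was 0.14 ± 0.06 (adjusted p = 0.117).

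Summed over the 9 Sf3 genes, FPKM were 635 ± 19.3 in Tfap2c-knockdown, 616 ± 24.3 in Tead4-knockdown and 644 ± 22.5 in double-knockdown libraries, against 562 ± 14.5 in GFP controls (SD, n = 4 each). As a share of all FPKM the Sf3 genes took 0.0719% to 0.0772% in Tfap2c-knockdown, 0.0702% to 0.0769% in Tead4-knockdown and 0.0732% to 0.0796% in double-knockdown libraries, against 0.0658% to 0.0673% in GFP controls. No knockdown library overlapped the controls in this sum, of which Sf3b1 made up 39.9% and Sf3b6 25.5% in the controls. The summed FPKM of the Hnrnp genes were 2690 to 2870 in Tfap2c-knockdown libraries, against 2485 to 2672 in GFP controls, also without overlap, although their shares of all FPKM did overlap. The other sums of the Hnrnp, Snrp and Srsf genes overlapped between knockdown and control.

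The SR protein gene Srsf9 had the lowest change of all 51 genes with Tfap2c dsRNA. Srsf9 encodes a small SR protein that acts in alternative splicing. It stood at 20.8, 19.1, 30.4 and 28.2 FPKM in Tfap2c-knockdown, 50.5, 46.0, 45.5 and 55.2 FPKM in Tead4-knockdown and 18.5, 22.1, 40.9 and 40.3 FPKM in double-knockdown libraries, against 40.7, 43.6, 41.6 and 47.9 FPKM in GFP controls. All Tfap2c-knockdown values lay below all controls, and the change was -0.82 ± 0.16 (limma, adjusted p = 0.00177). In the double knockdown it was -0.58 ± 0.16 (adjusted p = 0.0171), with -0.13 in cross B and -1.03 in cross A. The test of that difference between crosses gave an unadjusted p of 3.87e-04 and an adjusted p of 0.120. The call in the double knockdown was lost without double-knockdown A1 (adjusted p = 0.0606) or A2 (0.0550), without GFP-control A1 (0.0510) or A2 (0.0559), and without the cross term (0.0912).

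Srsf1, a founding member of the SR family that promotes exon inclusion, rose in both groups with Tfap2c dsRNA. It stood at 71.2, 71.6, 69.5 and 51.3 FPKM in Tfap2c-knockdown, 48.3, 52.8, 45.9 and 49.8 FPKM in Tead4-knockdown and 71.0, 71.7, 56.7 and 54.5 FPKM in double-knockdown libraries, against 50.1, 53.3, 45.8 and 40.5 FPKM in GFP controls. The double-knockdown values did not overlap the controls, and only B2 of the Tfap2c-knockdown libraries did. The change was 0.46 ± 0.09 (limma, adjusted p = 0.00206) and in the double knockdown 0.41 ± 0.09 (adjusted p = 0.00515). Srsf4, a larger SR protein of low level here, rose with Tfap2c dsRNA to 6.17, 5.2, 4.59 and 5.42 FPKM, against 4.17, 3.24, 3.57 and 2.82 FPKM in GFP controls (change 0.52 ± 0.14, limma, adjusted p = 0.0110). The other 7 SR protein genes tested did not pass in any comparison with the control. Of the 10 tested, 30.0% passed with Tfap2c dsRNA and 20.0% in the double knockdown, against 29.6% and 25.1% of all genes. Srsf3, the most abundant of them, stood at 317 ± 22.8 FPKM in Tfap2c-knockdown, 342 ± 6.69 FPKM in Tead4-knockdown and 324 ± 29.8 FPKM in double-knockdown libraries, against 355 ± 23.6 FPKM in GFP controls (SD, n = 4 each).

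Of the 20 hnRNP genes tested, 4 rose and 1 fell with Tfap2c dsRNA, and 2 rose and 2 fell in the double knockdown. Over all genes, 16.3% rose and 13.2% fell with Tfap2c dsRNA, and 13.9% rose and 11.3% fell in the double knockdown. The share of hnRNP genes that passed was below that of all genes in both comparisons (29.6% and 25.1% of all genes). Hnrnpll, known for controlling the splicing of the leukocyte gene Ptprc, rose in both. It stood at 10.4, 13.4, 13.5 and 15.1 FPKM in Tfap2c-knockdown, 10.7, 9.29, 11.1 and 13.5 FPKM in Tead4-knockdown and 11.7, 14.3, 11.8 and 15.4 FPKM in double-knockdown libraries, against 7.85, 6.78, 9.89 and 9.38 FPKM in GFP controls. Both groups with Tfap2c dsRNA lay wholly above the controls, with changes of 0.58 ± 0.12 (limma, adjusted p = 0.00294) and, in the double knockdown, 0.60 ± 0.12 (adjusted p = 0.00279).

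Hnrnpr, a close relative of Syncrip that binds mRNA in nucleus and cytoplasm, fell in both. It stood at 30.1, 29.9, 23.5 and 26.4 FPKM in Tfap2c-knockdown, 35.9, 40.0, 41.8 and 44.4 FPKM in Tead4-knockdown and 27.7, 29.9, 30.1 and 27.9 FPKM in double-knockdown libraries, against 35, 31.9, 37.3 and 42.2 FPKM in GFP controls. All 8 libraries with Tfap2c dsRNA were below all controls. The change was -0.40 ± 0.10 (limma, adjusted p = 0.00972) and in the double knockdown -0.33 ± 0.10 (adjusted p = 0.0335), and the second of these calls was lost in 9 of 23 alternative settings. Hnrnpdl, a relative of the AU-rich element binding protein Hnrnpd, stood at 40.5, 41.0, 35.6 and 33.3 FPKM in double-knockdown libraries, against 49.0, 53.4, 48.0 and 46.3 FPKM in GFP controls. It fell by 0.38 there (SE 0.08, limma, adjusted p = 0.00343), and with Tfap2c dsRNA alone its change was -0.21 ± 0.08 (adjusted p = 0.0665).

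Hnrnph3, of the G-rich RNA binding H and F group, rose with Tfap2c dsRNA to 15.4, 18, 14.0 and 13.0 FPKM, against 11.8, 13.0, 11.0 and 7.85 FPKM in GFP controls (change 0.44 ± 0.11, limma, adjusted p = 0.00731, and 0.101 without the cross term). Hnrnpa1 and Hnrnpc also passed with Tfap2c dsRNA. Hnrnpa1 stood at 706, 735, 618 and 663 FPKM in Tfap2c-knockdown libraries, against 598, 605, 496 and 520 FPKM in GFP controls (change 0.30 ± 0.09, adjusted p = 0.0249, lost in 8 of 23 settings). For Hnrnpc, which binds U-rich RNA, the change was 0.18 ± 0.06 (adjusted p = 0.0467) and the call was lost in 19 of 23 settings. Hnrnpab stood at 98.7, 96.8, 110 and 104 FPKM in double-knockdown libraries, against 81.1, 87.0, 86.8 and 92.3 FPKM in GFP controls. Its change there was 0.24 ± 0.07 (adjusted p = 0.0245), and the call was lost without double-knockdown A1 (adjusted p = 0.0553) or B1 (0.0677), without GFP-control A1 (0.0638) or B1 (0.0686), with median-ratio size factors (0.0891) and without the cross term (0.0825).

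The double knockdown was set against each single knockdown to ask what the second dsRNA added. Double against Tead4 knockdown is a further measure of Tfap2c dsRNA, and it shares no library with Tfap2c knockdown against GFP control. Both comparisons came from 1 fit over all 16 libraries, so they share its estimate of the spread. In it 3 splicing factor genes rose and 9 fell, so 23.5% passed, against 23.7% of all genes (10.9% rose and 12.9% fell), and 12 genes had no overlap (18.7% of all genes). The genes that rose were Srsf1, Sf3b6 and Hnrnpab, and those that fell were Snrpb2, Snrpd3, Snrpg, Sf3b2, Sf3b5, Srsf9, Srsf11, Hnrnpdl and Hnrnpr. Srsf9 fell by 0.76 (SE 0.16, limma, adjusted p = 0.00363), Hnrnpr by 0.47 (SE 0.10, adjusted p = 0.00436) and Hnrnpdl by 0.41 (SE 0.08, adjusted p = 0.00213). In cross A Srsf9 stood at 18.5 and 22.1 FPKM in double-knockdown against 50.5 and 46.0 FPKM in Tead4-knockdown libraries. In cross B it stood at 40.9 and 40.3 against 45.5 and 55.2 FPKM. A difference between crosses was not tested for this comparison. Both measures of Tfap2c dsRNA called Srsf9, Hnrnpr, Snrpb2, Srsf1 and Sf3b6, each in the same direction. Srsf9 and Hnrnpr kept both calls in all 23 alternative settings, while the calls against Tead4 knockdown were lost in 1 setting for Srsf1, 5 for Sf3b6 and 8 for Snrpb2. For Sf3b6 and Snrpb2 the lost settings included the fit on the compared groups only, where the comparisons share no estimate of the spread. None of the settings let a change differ between crosses. The 5 genes called in the main fit by both measures are 35.7% of the 14 called against the control and 41.7% of the 12 called against Tead4 knockdown. Of the 51 genes, 37 had the same sign in both measures, and Pearson's r across genes was 0.65, a description over genes that are not independent of each other. The shared calls, signs and r were not computed over all genes, so they are not read as particular to splicing factor genes. The Sm ring genes Snrpd3 and Snrpg, with 12.4 ± 3.08 and 474 ± 22.3 FPKM in double-knockdown against 17.5 ± 3.39 and 593 ± 27.2 FPKM in Tead4-knockdown libraries (SD, n = 4 each), passed in this comparison and not against the control, and whether the changes differ between those comparisons was not tested. Without Tead4-knockdown B2 the 12 calls fell to 6, and without double-knockdown B1 to 7.

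**Figure D4:**
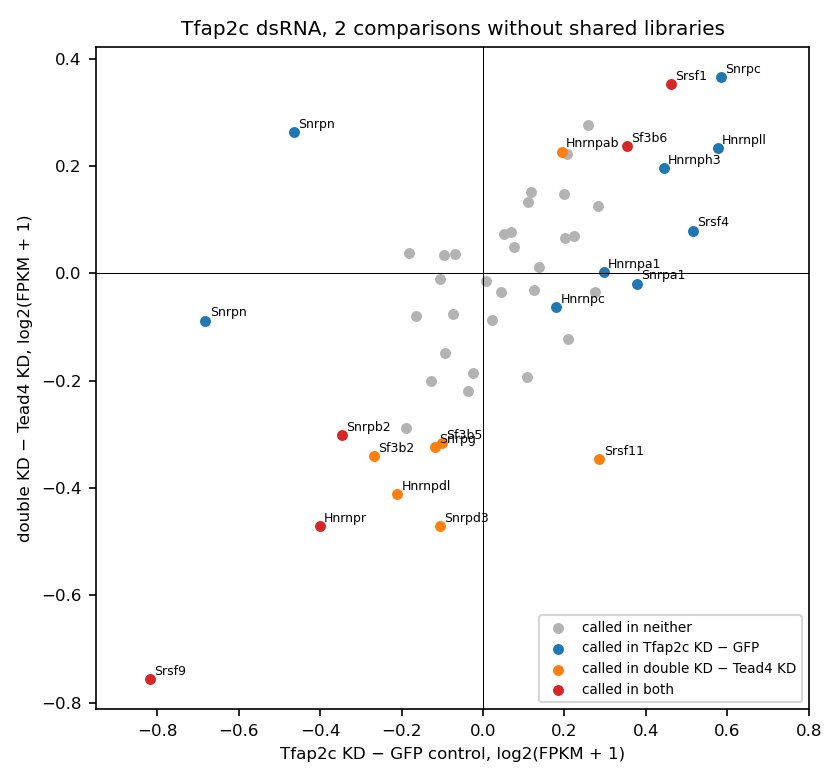
Difference of log2(FPKM + 1) of each of 51 splicing factor genes in Tfap2c knockdown against GFP control (x) and in double against Tead4 knockdown (y), which share no library, coloured by which comparison called the gene. Srsf9, Hnrnpr and Snrpb2 lie low and Srsf1 and Sf3b6 lie high in both, while the genes named Snrpn lie low on the x axis and at -0.09 and 0.26 on the y axis.

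Double against Tfap2c knockdown, the further measure of Tead4 dsRNA, called 0 of the 51 genes by limma, and 4 had an unadjusted p under 0.05 (9.52% of all genes). Over all genes 0.140% passed, and 1 splicing factor gene had no overlap between the groups (3.39% of all genes). Of the 51 genes, 24 had the same sign as with Tead4 dsRNA against the control, and Pearson's r across genes was -0.18. Here too, neither value was computed over all genes. Sf3b1, the gene called with Tead4 dsRNA, changed by 0.10 ± 0.06 here (adjusted p = 0.677). The non-additive part, the double change minus both single changes, also passed in 0 of 51 genes, with 8 at an unadjusted p under 0.05, and in 0.753% of all genes. The lowest value was that of Srsf11, an SR-related protein, at -0.63 ± 0.15 (adjusted p = 0.0761). It stood at 57.2 ± 2.51 FPKM in Tfap2c-knockdown, 51.7 ± 2.30 FPKM in Tead4-knockdown and 40.7 ± 5.40 FPKM in double-knockdown libraries, against 47.1 ± 6.80 FPKM in GFP controls (SD, n = 4 each).

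Directly compared, Tfap2c and Tead4 knockdown differed in 11 of the 51 genes, or 21.6% against 29.0% of all genes, with 5 higher and 6 lower in Tfap2c knockdown (13.8% and 15.2% of all genes), and 9 genes had no overlap (22.2% of all genes). The change of Srsf9 was -0.995 ± 0.163 (limma, adjusted p = 3.32e-04) and that of Hnrnpr -0.55 ± 0.10 (adjusted p = 0.00111). Sf3b2, a subunit of SF3b, stood at 19.2, 18.4, 16.7 and 20.3 FPKM in Tfap2c-knockdown and at 22.3, 23.5, 27.9 and 29.3 FPKM in Tead4-knockdown libraries. These values did not overlap, and the change was -0.44 ± 0.10 (adjusted p = 0.00363).

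By maternal cross, 19 of the 51 genes differed. This comparison set 8 libraries against 8, and each knockdown was set against the control with 4 against 4, so their counts are not compared. In cross B, relative to cross A, 9 genes were higher and 10 lower, so 37.3% passed, against 33.5% of all genes (17.2% higher and 16.3% lower). Cross may stand for strain, for the day or for the batch of embryos, which cannot be told apart. Hnrnpc ranged from 252 to 323 FPKM with a median of 298 FPKM in the 8 cross B libraries, and from 371 to 433 FPKM with a median of 404 FPKM in the 8 of cross A. The crosses did not overlap, and the change was -0.47 ± 0.05 (limma, adjusted p = 6.42e-06). Hnrnpa0, an AU-rich element binding protein, ranged from 11.2 to 15.5 FPKM (median 12.6) in cross B and from 16.5 to 20.5 FPKM (median 18.9) in cross A, again without overlap (change -0.49 ± 0.08, adjusted p = 3.74e-04).

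Snrpb2 ranged from 92.9 to 151 FPKM (median 129) in cross B and from 80.0 to 117 FPKM (median 96.8) in cross A. Its change of 0.39 ± 0.07 (limma, adjusted p = 5.38e-04) stands beside -0.35 with Tfap2c dsRNA, and cross B was higher in all 4 groups. Sf3a1, a subunit of SF3a, was lower in cross B, at 4.15 to 6.66 FPKM (median 5.71) against 6.94 to 9.96 FPKM (median 8.55) in cross A, without overlap. In all, 1 gene (Hnrnpa2b1) lay wholly above and 3 (Hnrnpc, Hnrnpa0 and Sf3a1) wholly below, or 4 of 51, where 3.38% of all genes had no overlap between crosses. A test of whether a knockdown's change differed between crosses passed for 0 genes of the 11422 in all 3 knockdowns by limma. Of the splicing factor genes, 6, 2 and 3 had an unadjusted p under 0.05 with Tfap2c dsRNA, Tead4 dsRNA and both. The share of all genes under that p was not computed for this test, so these counts have no background.

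**Figure D5:**
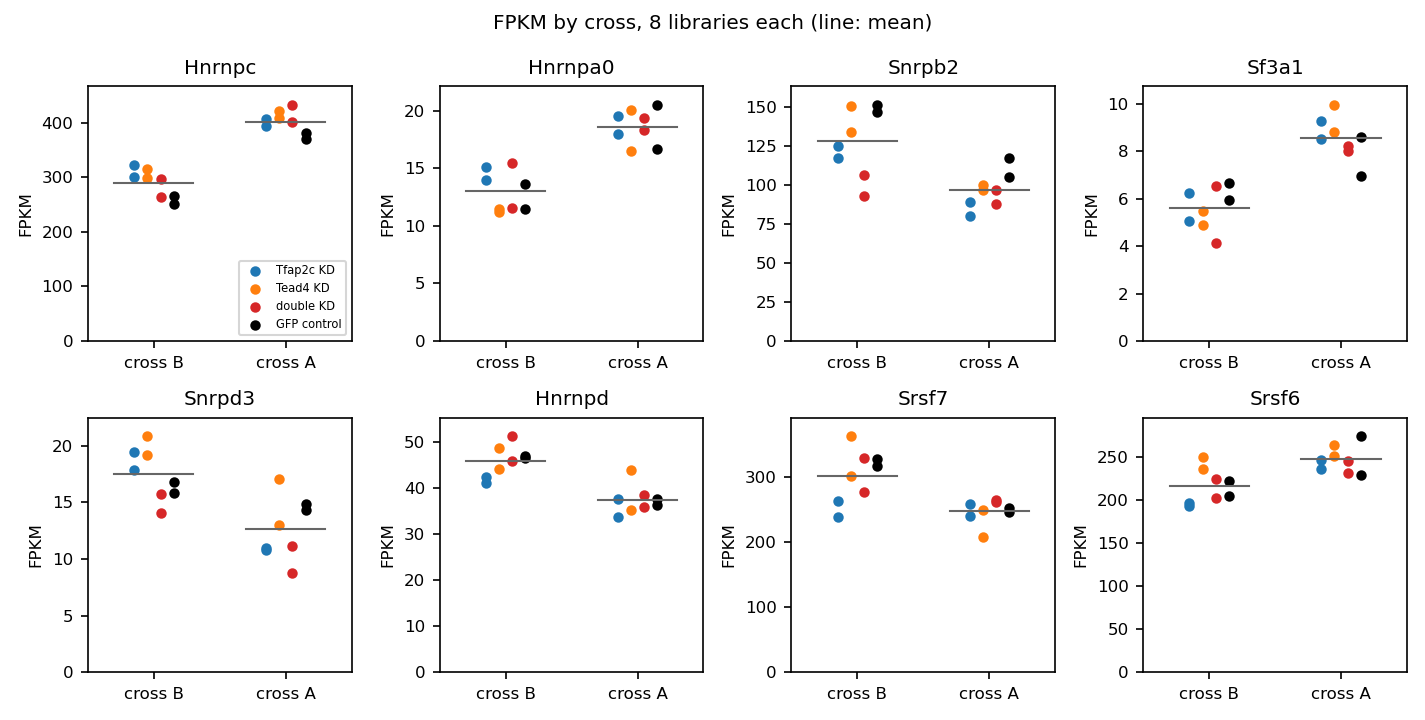
FPKM of 8 splicing factor genes in the 8 libraries of cross B (left) and the 8 of cross A (right), coloured by group, with lines for means. Hnrnpc, Hnrnpa0 and Sf3a1 are lower in cross B without overlap, and Snrpb2 and Snrpd3 have a higher mean there.

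A further 121 genes of splicing outside the 4 families, in 9 lists, were read in the same fit, and all were tested. With Tfap2c dsRNA 27 rose and 8 fell, so 28.9% passed, against 29.6% of all genes. With Tead4 dsRNA 0 rose and 0 fell by limma, while 6.13% of all genes passed. An unadjusted p under 0.05 was found for 13 of the 121, where 21.1% of all genes had one. In the double knockdown 13 rose and 5 fell, or 14.9% against 25.1%. The counts of the single lists that follow are to be read against the shares of all genes, 16.3% higher and 13.2% lower with Tfap2c dsRNA and 13.9% higher and 11.3% lower in the double knockdown, and none of the lists was tested as a set. Against the control their median change was 0.14 with Tfap2c dsRNA, 0.05 with Tead4 dsRNA and 0.06 in the double knockdown, beside the medians over all genes given above. Among 13 factors of snRNP assembly 3 rose and 2 fell with Tfap2c dsRNA. Clns1a, which encodes pICln, the chaperone that hands Sm proteins to the assembly machinery, had 212 FPKM in Tfap2c-knockdown and 259 FPKM in double-knockdown libraries on average, against 355 FPKM in GFP controls. It fell by 0.74 (SE 0.07, limma, adjusted p = 4.09e-06) and by 0.46 in the double knockdown (SE 0.07, adjusted p = 2.53e-04).

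In the minor spliceosome list, which serves a rare class of introns, 2 of 8 rose and 2 fell with Tfap2c dsRNA. Snrnp25, a protein of its U11 and U12 particle, averaged 51.7 FPKM in Tfap2c-knockdown and 59.0 FPKM in double-knockdown libraries, against 80.2 FPKM in GFP controls, and fell by 0.61 (SE 0.09, limma, adjusted p = 2.67e-04) and 0.42 (SE 0.09, adjusted p = 0.00437). In the list of U1, U2 and U2 recruitment factors 3 of 15 rose and 0 fell with Tfap2c dsRNA. Among them was Ddx46, a helicase of U2 recruitment (0.46 ± 0.09, limma, adjusted p = 0.00183). In the exon junction and export list 4 of 12 rose and 0 fell, among them Magoh, a core subunit of that complex (0.43 ± 0.10, adjusted p = 0.00506).

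Among the 25 other regulators of alternative splicing 9 rose and 1 fell with Tfap2c dsRNA, and 3 rose and 1 fell in the double knockdown. Syncrip, the relative of Hnrnpr, averaged 248 FPKM in Tfap2c-knockdown and 254 FPKM in double-knockdown libraries, against 185 FPKM in GFP controls, and rose by 0.42 ± 0.08 (limma, adjusted p = 8.92e-04) and 0.45 ± 0.08 (adjusted p = 5.85e-04), so it moved opposite to Hnrnpr. The epithelial splicing regulators also parted in the double knockdown, where Esrp1 rose by 0.68 ± 0.17 (adjusted p = 0.00899) and Esrp2 fell by 0.57 (SE 0.13, adjusted p = 0.00447). With Tfap2c dsRNA alone Esrp1 rose by 0.82 ± 0.17 (limma, adjusted p = 0.00243), and Esrp2 averaged 11.1 FPKM against 16.5 FPKM in GFP controls. Esrp1 was low, at 5.93 ± 1.86 FPKM in double-knockdown libraries against 3.22 ± 0.480 FPKM in GFP controls (SD, n = 4 each). Of the remaining lists, tri-snRNP and U5 proteins had 2 higher and 0 lower of 16 with Tfap2c dsRNA, Lsm proteins 1 and 1 of 8, the Prp19 complex and catalytic steps 2 and 1 of 16, and SR protein kinases 1 and 1 of 8.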

How the data were processed

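RNA from 16 libraries of pooled mouse 8-cell embryos was analysed. The submitters' processing notes list CASAVA, Trim Galore, STAR, Cufflinks and the mm10 build. For their settings and for the annotation, the sources used here give nothing. The values deposited by the authors are FPKM per gene, and all log2 values were computed here from the deposited FPKM. The table had 43496 lines, of which 59 repeated a gene, and 27 symbols that a spreadsheet had turned into dates were restored from identifiers. Since FPKM give no counts, no count test was run, and the number of libraries limits precision.

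A gene entered the fit if 4 or more libraries reached 1 FPKM (11422 genes). Values were fitted as log2(FPKM + 1) with limma 3.58.1 in R 4.3.3 (lmFit, eBayes with a variance trend), with terms for group and cross over all 16 libraries. Tests are two-sided, with Benjamini-Hochberg adjustment over all genes kept, and 8 contrasts were made. The fit was tested on simulated data. Genes were described with values in every library if they were, in each family and each comparison with the control, among the up to 3 that passed with the lowest p and a mean of at least 5 FPKM, or the 3 with the lowest p between knockdowns or crosses. The 2 genes highest in control in each family were added, and other called genes are named with fewer values. From each further list up to 3 genes by lowest p could be named. The gene families, lists and tests were chosen with earlier results of these data known.

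Locations and upstream sequences are from RefSeq (GRCm38.p6), and 54 of the 56 genes matched. The alternatives were another pseudocount (0.1), no filter, median-ratio and quantile scaling, no cross term, a replicate block, fits on the compared groups only, and leaving out each library. Libraries of different groups with the same label deviated together little once group and cross were fitted (r from -0.17 to 0.18, 4 of 24 over 0.1). With 2 libraries per group and cross, both labels of a cross give the same r, so the 24 values are not separate checks. Those over 0.1 were all between Tfap2c-knockdown and GFP-control libraries, at 0.131 in cross A and 0.176 in cross B. The labels were not taken to pair samples.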

Additional observations from a re-analysis of the deposited data

Results flagged for a closer look

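Single libraries stood apart from the other 3 of their group in 4 of the 92 sets of values examined (23 named genes in 4 groups), by a test that flags about 1 set in 20 by chance. Snrpc was at 596 FPKM in double-knockdown B1, against 354 to 372 FPKM in the other 3, and its change against the control still passed without that library. Srsf1 was at 51.3 FPKM in Tfap2c-knockdown B2, against 69.5 to 71.6 FPKM in the other 3. Snrpa1 was at 325 FPKM in Tead4-knockdown A1, against 349 to 353 FPKM, and Sf3b6 at 168 FPKM in Tead4-knockdown B1, against 144 to 147 FPKM.

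Among the 23 named genes, in 4 instances all libraries of a knockdown lay on opposite sides of their controls in cross B and cross A. For Srsf5 the change in cross B minus that in cross A was 0.338 on the log2 scale with Tfap2c dsRNA (interaction term in limma, adjusted p = 0.416) and 0.407 with Tead4 dsRNA (adjusted p = 0.725). The difference was -0.212 for Hnrnpk in the double knockdown (adjusted p = 0.545) and -0.322 for Hnrnpa1 with Tead4 dsRNA (adjusted p = 0.725). None of these 4 differences passed the test of the difference itself. Over all 51 genes tested there were 13 such instances in 153, and the lowest adjusted p among them was 0.210, for Snrpd3 with Tfap2c dsRNA. With so few libraries per cross some such instances arise by chance, and their share over all genes was not computed.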

How the results depend on the processing

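Without the cross term the calls among the 51 genes fell to 9 of 14 with Tfap2c dsRNA, 0 with Tead4 dsRNA, 7 of 11 in the double knockdown, 6 of 12 in double against Tead4 knockdown and 6 of 11 in Tfap2c against Tead4 knockdown. The call with Tead4 dsRNA went to 0 also without a filter, with the replicate block, and with only the compared groups, and became 2 (Sf3b1 and Snrpn) with quantile scaling. With median-ratio size factors 1 gene was called with Tead4 dsRNA, but it was Snrpn, while Sf3b1 lost its call (adjusted p = 0.188). No other count moved by over 1.5 times under the replicate block, whose labels were not taken to pair samples. With each library left out in turn the calls were 11 to 14 with Tfap2c dsRNA, 0 to 1 with Tead4 dsRNA, 8 to 13 in the double knockdown, 6 to 13 in double against Tead4 knockdown, 0 to 0 in double against Tfap2c knockdown, 8 to 12 in Tfap2c against Tead4 knockdown and 16 to 20 by cross. The non-additive part gave 0 to 1, the 1 being Srsf11 without GFP-control A1. Of 30 named results, 24 kept direction and call under every one of the 23 settings that could be fitted for them, and 0 reversed. These 30 were picked for their low p in the same data, so their share is no measure of how well all calls hold. Results by cross could not be fitted without the cross term, with the replicate block or on the compared groups only. Of 681 alternative values 33 lost their call, 19 of them for Sf3b1 with Tead4 dsRNA. The median over all genes moved by under 0.1 on the log2 scale with each scaling tried. The causes were not tested. Absolute depth is unknown, so for genes near 1 FPKM, such as Hnrnpul1 and Sf3a2, small changes may not be detectable.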
